A study of Mus musculus with 18 samples.

Results

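CK666 was given to cells that had already lost Arp4, and the question was what the inhibitor adds to their transcription. CK666 blocks the Arp2/3 complex, and Arp4 is a nuclear actin-related protein encoded by Actl6a. The comparison used 6 of the 18 RNA-seq libraries of the study, chosen by their labels: 3 of siArp4 and 3 of siArp4+CK666. All cells were mesenchymal stem cells (MSC) from the marrow of male C57BL/6J mice, grown in culture. Both groups carried the same siRNA against Arp4, transfected overnight in medium without serum, after which the medium was changed and 1 group received CK666. A further 3 libraries of the same experiment received a control siRNA (siControl), and 6 libraries of untransfected cells, 3 untreated (control) and 3 with CK666 alone, are used below for comparison. The remaining 3 libraries, untransfected cells labelled CytoD, entered the interaction fit to all 18 libraries and are not otherwise used. The methods describe distinct preparations per condition, and the paper states that its studies shared a primary line prepared from such mice. The p-values therefore measure the spread between preparations of that line and not between animals. None of the 18 RNA-seq libraries combined siControl with CK666. Transfection, knockdown and experiment therefore cannot be told apart wherever the knockdown cells are set beside the untransfected cells.

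The Arp2/3 complex starts new actin filaments as branches on the sides of existing ones, whereas formins extend unbranched filaments. Actin also reaches the nucleus, where actin and Arp4 are subunits of the BAF, INO80, TIP60 and SRCAP chromatin complexes. The balance between free and polymerized actin further sets the activity of MRTF, the coactivator of serum response factor (SRF), and that of YAP, the coactivator of TEAD factors. MSC can become adipocytes or osteoblasts, and the state of their actin skeleton is known to bias that choice.

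Libraries of the comparison held 18848954 to 24733212 estimated counts, and 12616 to 13233 genes per library reached a count of 10. Mitochondrial genes took 2.67% to 3.26% of the counts in siArp4 and 2.86% to 3.36% in siArp4+CK666, and ribosomal protein genes took 5.10% to 6.11% and 5.0% to 7.79%. Over the 1000 most variable genes, distances between libraries of the different groups ran from 36.5 to 43.6, against 13.7 to 16.5 among the siArp4 libraries and 16.9 to 27.1 among the siArp4+CK666 libraries. The first principal component took 75.2% of the variance and separated the groups. The siControl libraries, which entered the fit, differed more among themselves, with a chi-square per degree of freedom of up to 425 against at most 94.0 in siArp4+CK666 and 23.0 in siArp4. Of 15 MSC markers 13 were tested, and the summed level ran from 48412 to 52866 in siArp4 and from 44339 to 50800 in siArp4+CK666. Among them Ly6a and Cd44, the hyaluronan receptor (-1.04 (SE 0.19, adjusted p 2.25e-06)), were called lower and 0 higher. Thy1, one of the defining markers, was at 0 counts in all 6 libraries, and Nt5e read at most 5.4. Of endothelial, blood cell and chondrocyte markers 1, 1 and 2 were tested and 0 were called. The summed endothelial markers were low and did not overlap between groups, with 9.26 to 13.0 in siArp4 and 21.2 to 25.8 in siArp4+CK666, most of it Kdr (1.40 (SE 0.59, adjusted p 0.0972)).

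Actl6a (ENSMUSG00000027671.14; chromosome 3, 32706298 to 32726973, plus strand, GRCm38), the target of the siRNA, was read first. Its normalized counts, which are counts divided by the size factor of the library, were 720.1, 1127 and 841 in siControl, 48.8, 57.2 and 19.0 with siArp4 alone, and 9.52, 22.9 and 17.9 with siArp4+CK666. Both knockdown groups lay far below siControl, and they overlapped each other. The difference between them was -1.31 (SE 0.46, adjusted p 0.0324) on the log2 scale and did not pass the threshold, although it did without siArp4 replicate 3 (-1.65) and in a fit to all 18 libraries. Mrpl47 overlaps Actl6a on the opposite strand and could contribute reads where exons overlap, because the libraries do not record the strand. This overlap and those given below are of whole gene spans, and overlap of exons was not checked.

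CK666 changed a sizeable share of the transcriptome of the knockdown cells, and more genes fell than rose. Of 14098 genes tested, 811 were called (5.75%), with an adjusted p below 0.01 and a change of over 2-fold (an absolute log2 fold change over 1, DESeq2 Wald test). Of these 230 were higher (1.63%) and 581 lower (4.12%) with CK666, so that 71.6% of the calls were falls. With no minimum on the fold change 1395 genes were called (9.9%), 539 higher (3.82%) and 856 lower (6.07%), and the share of falls was 61.36%. At least 4-fold changes numbered 58 rises and 194 falls, and at least 8-fold changes 24 and 62. In all 811 called genes the 3 libraries of one group lay entirely above those of the other, as they did in 37.8% of all genes tested. The median log2 fold change over all genes tested was 0.02. edgeR called 466 genes in the same 9 libraries, 115 higher and 351 lower, and 731 where the siControl libraries were left out of its fit.

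**Figure D1:**
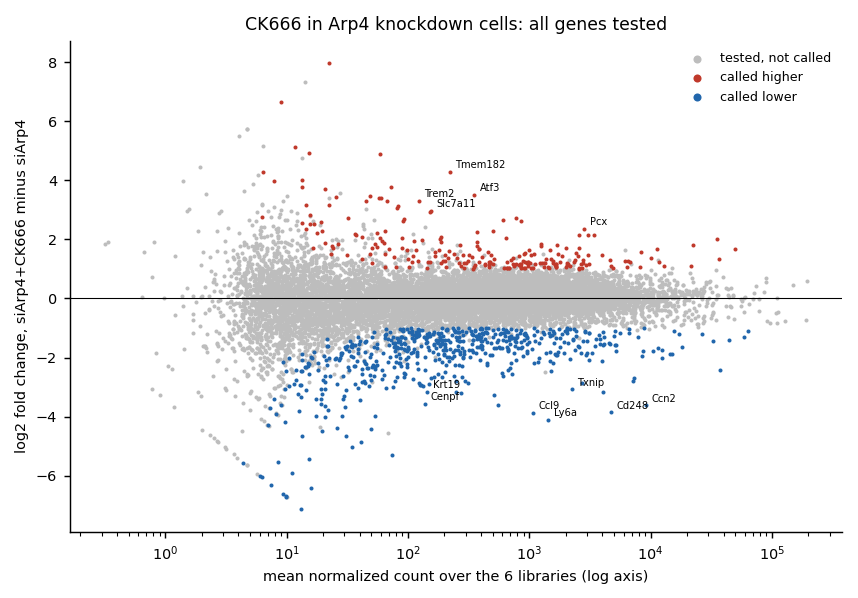
Each point is 1 gene tested in siArp4+CK666 against siArp4, with its mean normalized count over the 6 libraries on a log axis and its log2 fold change on the vertical axis. Red points are the 230 genes called higher and blue points the 581 called lower; genes without counts in these 6 libraries are left out.

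The largest rise among well measured genes was that of Tmem182, which encodes a membrane protein. Its normalized counts were 16, 23.8 and 26 in siArp4, against 454, 444 and 369.9 in siArp4+CK666, with 174, 136 and 196 in siControl. Every siArp4+CK666 library exceeded every siControl library, and the siArp4 libraries were the lowest. The log2 fold change was 4.28 (SE 0.29, adjusted p 6.95e-47), a 19.5-fold rise. Atf3, a stress-induced transcription factor, read 56.4, 59.4 and 55.1 without CK666 and 606, 646 and 689 with it, a change of 3.51 (SE 0.23, adjusted p 6.32e-48). Trem2, a lipid-sensing receptor best known in myeloid cells, read 20.2, 31.3 and 17.0 in siArp4, against 182, 196 and 294 in siArp4+CK666, a change of 3.30 (SE 0.41, adjusted p 1.37e-13). Among macrophage markers Ptprc, Adgre1, Itgam, Aif1 and Tyrobp were at 0 in all siArp4 libraries and in siArp4+CK666 replicates 1 and 2, while replicate 3, where Trem2 was highest, had 188.6 normalized counts of Lyz2 and 12.6 of Adgre1. The summed level of 10 macrophage markers ran from 175 to 191 in siArp4 and from 148 to 396 in siArp4+CK666, and of the 4 tested 0 were called. In replicates 1 and 2 the other 5 markers had counts, with sums of 148 and 167, and Trem2 was above every siArp4 library. Whether other cells contributed to Trem2 was not tested. Other leading rises were Slc7a11, the cystine importer (2.97), Gpr176, an orphan receptor (2.72), Trib3, a pseudokinase of the stress response (2.67), Mamdc2 (2.61), Fbln7, an adhesion protein of the matrix (2.28), the death-associated kinase Dapk1 (2.24) and the metallothionein Mt2 (2.15). Pcx, which encodes pyruvate carboxylase, rose by 2.36, from 942, 885 and 946 to 5012, 4548 and 4667, and Atf5, a factor of the stress response, by 2.16. Pcx and Atf5 overlap Lrfn4 and Nup62 on the opposite strand, which have mean counts of 1015 and 942. Part of their reads would be uncertain where exons overlap, which was not checked.

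Ly6a, the surface antigen Sca-1 that marks mouse progenitor cells, fell most among well measured genes. It read 2842, 2865 and 2423 without CK666 and 142, 145 and 187 with it, a change of -4.10 (SE 0.24, adjusted p 4.29e-61), which left 5.82% of the siArp4 level. In siControl it read 758, 1279 and 1009, between the knockdown groups. Cd248, or endosialin, a surface glycoprotein of stromal cells, read 8948, 9023 and 8504 in siArp4, against 601, 625 and 612 in siArp4+CK666 and changed by -3.85 (SE 0.13, adjusted p 3.14e-187). Ccn2, a matricellular growth factor and a target of YAP, read 16987, 16847 and 17091 without CK666 and 1289, 1429 and 1445 with it and changed by -3.61 (SE 0.13, adjusted p 3.22e-177). For each of these the 3 siArp4 libraries lay above all siControl libraries and the 3 siArp4+CK666 libraries below them. The chemokine Ccl9 changed by -3.86, the mitotic protein Cenpf by -3.57, the urokinase Plau by -3.19, Gprc5a, a retinoic acid-induced receptor, by -3.17 and Txnip, a glucose-responsive regulator of thioredoxin, by -3.08. The zinc receptor Gpr39 changed by -2.96, Glt8d2 by -2.93 and the spindle protein Nusap1 by -2.92. Glt8d2 and Nusap1 overlap Tdg (mean count 1721) and Oip5 (261) on the opposite strand. Krt19, a keratin, changed by -3.17, from 288, 288 and 206 to 14.8, 23.8 and 48.5, while the other epithelial markers, Epcam, Cdh1, Krt5, Krt8 and Krt18, read at most 6.48 in any of the 6 libraries.

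**Figure D2:**
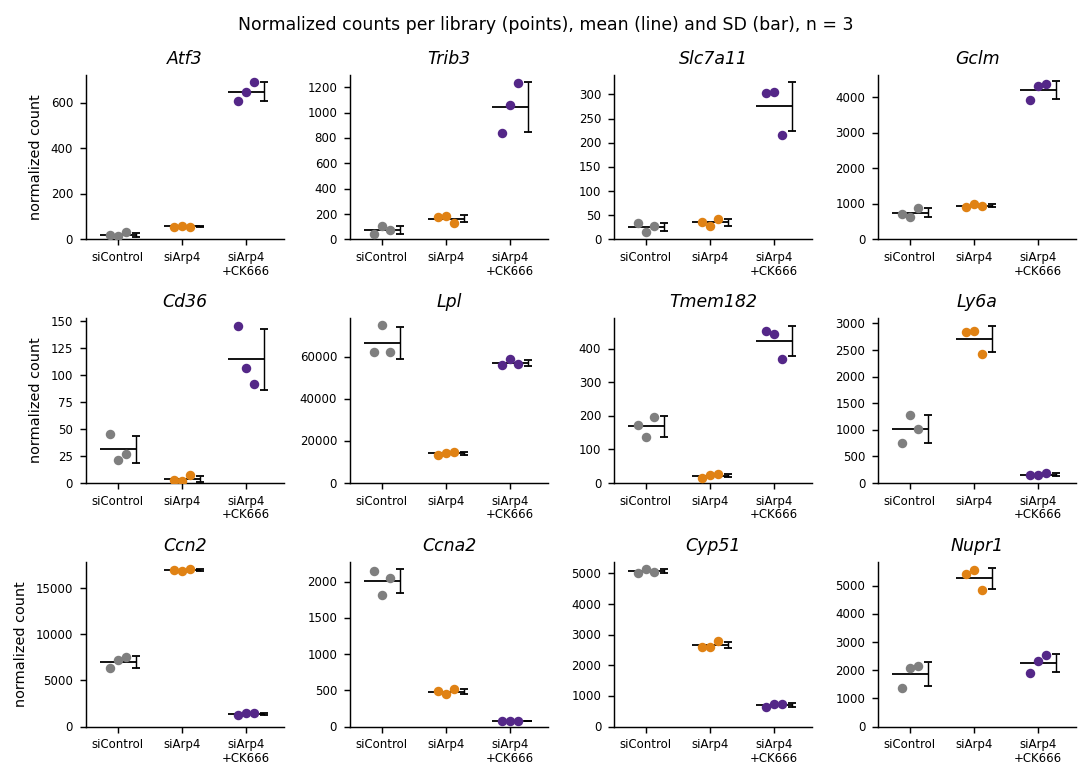
Normalized counts of 12 named genes in the siControl, siArp4 and siArp4+CK666 libraries (points), with the group mean (line) and SD (bar, n = 3); each vertical axis starts at 0. In all 12 the points of siArp4+CK666 lie apart from those of siArp4, and Ly6a, Ccn2 and Nupr1 are highest in siArp4.

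Most cell division genes fell. Of 31 genes of mitosis and cytokinesis tested, 28 were called lower and 0 higher, with a median log2 fold change of -1.86 against 0.02 over all genes. Ccna2, the cyclin of S phase and mitotic entry, read 2147, 1821 and 2050.0 in siControl, 487, 447 and 518 with siArp4 alone, and 77.2, 80.1 and 73.8 with siArp4+CK666. The 3 groups did not overlap, and the change with CK666 was -2.65 (SE 0.18, adjusted p 1.67e-47). Exosc9, with a mean count of 946, overlaps Ccna2 on the opposite strand. Nuf2, a subunit of the kinetochore complex that binds microtubules, read 456, 444 and 409 in siArp4, against 60.3, 73.4 and 54.8 in siArp4+CK666 and changed by -2.79 (SE 0.22, adjusted p 3.19e-33). Aurkb, the kinase of the chromosomal passenger complex, changed by -2.09 and Tpx2, a spindle assembly factor, by -1.66. Cenpf read 147, 149 and 475 without CK666 and 25.4, 26.7 and 12.6 with it, with siArp4 replicate 3 far above the other siArp4 libraries. The members not called were Cenpe (-0.38, adjusted p 0.621), Mad2l1 (-0.89, 2.63e-05) and Ect2 (-1.46, 0.0209). In bulk RNA, fewer dividing cells and less mitotic RNA per cell cannot be told apart.

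Fewer genes of DNA replication were called. Of 32 tested, 7 were called lower and 1 higher, with a median of -0.72, and edgeR called 5 lower and 0 higher. Mcm5 and Mcm6, subunits of the replicative helicase, changed by -1.40 (SE 0.12, adjusted p 3.27e-30) and -1.27 (SE 0.12, adjusted p 4.57e-25). Mcm5 read 909, 902 and 859 in siArp4, against 338, 335 and 336 in siArp4+CK666. Cdc6, which loads the helicase onto origins, changed by -2.79 (SE 0.50, adjusted p 8.63e-07). Prim1, the catalytic primase subunit, changed by -1.01, close to the fold minimum, and lost its call without siArp4 replicate 2 or siArp4+CK666 replicate 1 or 2. Cdt1, the partner of Cdc6 in loading, was the exception and rose by 1.02 (SE 0.23, adjusted p 2.40e-04), a call lost in edgeR (adjusted p 0.0149) and without siArp4 replicate 3 or siArp4+CK666 replicate 3. It also fell just below the fold minimum with upper quartile size factors (0.994) and with the replicate block (0.997).

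Promoters of the called mitotic genes often held sequence elements of cell cycle genes. With 28 of the 31 members tested called, the shares describe the list and not the response to CK666. The CHR element (TTTGAA, on either strand), which recruits the complexes that repress and activate cell cycle genes, was found in the promoters of 19 of the 24 called mitotic genes with a promoter in the RefSeq table, against 14.4% of all genes tested with a promoter there. CCAAT boxes were found in 18 of the 24, against 43.3%. The called members with a CHR match and the smallest adjusted p were Kif2c, a microtubule-depolymerizing kinesin (-2.38), and Racgap1, a regulator of cytokinesis (-1.63). Their promoters (250 bases before the start and 50 after, 5′ to 3′, GRCm38.p6) are printed because they show the element, in capitals. Kif2c lies at chr4:117178723-117179022, minus strand, and Racgap1 at chr15:99651607-99651906, minus strand.
Kif2c: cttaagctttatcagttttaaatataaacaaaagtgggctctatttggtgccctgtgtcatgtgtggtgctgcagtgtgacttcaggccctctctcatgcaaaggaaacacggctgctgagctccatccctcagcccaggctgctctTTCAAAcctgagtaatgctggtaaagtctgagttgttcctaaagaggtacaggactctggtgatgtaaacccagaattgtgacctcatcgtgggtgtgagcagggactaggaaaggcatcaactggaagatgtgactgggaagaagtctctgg
Racgap1: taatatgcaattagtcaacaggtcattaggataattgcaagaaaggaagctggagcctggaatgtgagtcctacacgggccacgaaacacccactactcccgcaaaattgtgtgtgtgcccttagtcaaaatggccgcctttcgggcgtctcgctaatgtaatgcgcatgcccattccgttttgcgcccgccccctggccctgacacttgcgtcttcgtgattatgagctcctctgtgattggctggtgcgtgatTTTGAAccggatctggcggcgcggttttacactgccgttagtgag

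Many sterol synthesis genes fell as well. Of 23 genes tested 12 were called lower and 0 higher, with a median of -1.11. Cyp51, the lanosterol demethylase, read 2605, 2611 and 2791 without CK666 and 642, 737 and 739 with it and changed by -1.92 (SE 0.12, adjusted p 1.36e-55); it overlaps Akap9 (mean count 707) on the opposite strand. Idi1, the isomerase of the isoprenoid building blocks, read 1837, 1974 and 2018 in siArp4, against 505, 472 and 452 in siArp4+CK666 and changed by -2.03 (SE 0.15, adjusted p 6.83e-38). Srebf2, the transcription factor that drives the pathway, changed by -1.20. Insig1, which retains the SREBP factors in the ER and was chosen after its values were seen, changed by 0.06 (adjusted p 0.937) and did not pass. Of the 12 called genes 6 had a promoter in the table, all 6 of them with a CCAAT box, and 1 held the sterol regulatory element (TCACNCCAC), which 1.32% of all tested genes with a promoter hold. That was Hmgcs1, the HMG-CoA synthase, which changed by -1.11 (SE 0.28, adjusted p 0.00132). Its promoter (chr13:119690101-119690400, plus strand, GRCm38.p6) is printed with the element in capitals.
Hmgcs1: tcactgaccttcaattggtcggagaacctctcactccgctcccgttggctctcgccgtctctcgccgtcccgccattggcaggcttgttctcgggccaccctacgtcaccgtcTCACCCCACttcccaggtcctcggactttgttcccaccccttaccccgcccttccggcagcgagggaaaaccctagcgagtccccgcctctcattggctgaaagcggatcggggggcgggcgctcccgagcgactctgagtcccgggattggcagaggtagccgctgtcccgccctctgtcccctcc

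A part of the contractile genes that depend on SRF and MRTF fell. Of 24 tested, 9 were called lower and 0 higher, with a median of -0.83. Acta2, smooth muscle actin, read 24119, 22670.0 and 20978 without CK666 and 5582, 5772 and 6869 with it and changed by -1.89 (SE 0.21, adjusted p 6.60e-18). Actg2, the enteric smooth muscle actin, changed by -2.13 (SE 0.23, adjusted p 1.70e-18), the focal adhesion protein Tgfb1i1 by -1.68 (SE 0.22, adjusted p 5.93e-12) and Tagln2, a transgelin, by -2.04 (SE 0.28, adjusted p 1.78e-11). The libraries of the 2 groups did not overlap for any of these 4 genes. The skeletal muscle actin Acta1 read 92.6, 97.2 and 64.1 in siArp4, against 9.52, 5.72 and 17.9 in siArp4+CK666. Of 8 skeletal muscle markers Myod1, Myog, Myf5 and Myh3 were at 0 in all 6 libraries and the other 4 had counts. Their summed level ran from 93.2 to 136 in siArp4 and from 22.2 to 55.85 in siArp4+CK666. Of the 2 tested, both were lower and 1, Acta1, was called. The cytoplasmic actin Actb, chosen after its values were seen, read 49318, 51739 and 45203 without CK666 and 34162, 40524 and 48159 with it and did not pass (-0.25, adjusted p 0.754). A CArG box, the binding sequence of SRF, was found in 3 of the 6 called members with a promoter in the table, against 1.63% of all tested genes with a promoter. The member among these with the smallest adjusted p was Fhl2, a LIM protein that read 2788, 2891 and 2468 in siArp4, against 696, 922 and 995 in siArp4+CK666. Its promoter (chr1:43196712-43197011, minus strand, GRCm38.p6; 1 of 2 in the table) is given with the CArG box in capitals.
Fhl2: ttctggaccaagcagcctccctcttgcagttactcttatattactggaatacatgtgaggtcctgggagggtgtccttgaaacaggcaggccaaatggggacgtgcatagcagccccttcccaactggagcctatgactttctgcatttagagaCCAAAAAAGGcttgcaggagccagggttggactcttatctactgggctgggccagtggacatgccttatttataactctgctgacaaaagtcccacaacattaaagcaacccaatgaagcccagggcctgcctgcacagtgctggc

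Of 18 YAP and TEAD targets 2 were called lower, Ccn2 and Ccn1, and 1 higher, F3, with a median of -0.47. That is 16.67% called, against 5.75% of all genes. Ccn1, a matricellular protein like Ccn2, read 2959, 2871 and 2693 without CK666 and 949.5, 1049 and 1057 with it and changed by -1.48 (SE 0.15, adjusted p 2.67e-20). F3, the tissue factor that starts coagulation, went the other way and read 419, 492 and 429.8 in siArp4, against 1087, 1231 and 1322 in siArp4+CK666, a change of 1.44 (SE 0.17, adjusted p 2.48e-15). The rest of the list did not pass the call.

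Among collagens and other matrix genes the calls were all falls. Of 31 tested, 11 were called lower and 0 higher, with a median of -0.86, but the count was 7 without siArp4 replicate 1, without siArp4 replicate 3 or without siArp4+CK666 replicate 3. Col1a1, the main collagen of bone, read 82588, 81997 and 89298 without CK666 and 36193, 35225 and 31427 with it and changed by -1.30 (SE 0.24, adjusted p 1.11e-06). Col5a1, which sets fibril diameter, changed by -1.43 (SE 0.16, adjusted p 5.74e-16), Col8a1 by -1.80 (SE 0.27, adjusted p 2.96e-09) and Col12a1 by -1.20 (SE 0.19, adjusted p 1.05e-08). Dcn, the proteoglycan decorin, read 371, 431 and 443 in siArp4, against 81.4, 63.0 and 58.0 in siArp4+CK666 and changed by -2.62 (SE 0.23, adjusted p 1.41e-27). Among proteases and their inhibitors 3 of 17 were lower and 1 higher (23.53% called, against 5.75% of all genes). Timp3, a tissue inhibitor of metalloproteinases, changed by -2.09 (SE 0.22, adjusted p 2.14e-18), whereas Timp1 (-1.79) and the protease Adamts1 (-1.47) were not called by edgeR (adjusted p 0.0307 and 0.0173). Mmp11, or stromelysin 3, was the member that rose, from 9949, 10658 and 9466 to 33416, 37149 and 34785, a change of 1.81 (SE 0.20, adjusted p 3.45e-17). Chchd10 (mean count 62.5) overlaps Mmp11 on the opposite strand.

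Chemokines and their regulators gave 6 called lower and 0 higher of 18 tested, with a median of -0.18, so the falls belonged to a few members. Ccl9 read 2283, 1657 and 2082 without CK666 and 98.3, 201 and 114 with it and changed by -3.86 (SE 0.31, adjusted p 1.71e-33). Ccl2 and Ccl7, which attract monocytes, changed by -2.99 (SE 0.34, adjusted p 8.34e-17) and -2.51 (SE 0.30, adjusted p 7.05e-15). Il1rn, the antagonist of the interleukin 1 receptor, read 4349, 4728 and 5392 in siArp4, against 610.1, 693 and 690.2 in siArp4+CK666 and changed by -2.86 (SE 0.16, adjusted p 7.29e-67). Cxcl12, the retention factor of the marrow niche, was chosen after its values were seen and read 12215, 11916 and 12664 without CK666 and 18081, 19772 and 18406 with it, which is higher in every library with CK666 but below the fold minimum (0.61 (SE 0.15, adjusted p 7.01e-04)). Of 35 interferon and antigen presentation genes 2 were called lower, Gbp2 (-1.14) and Irf7 (-1.62), and 0 higher, a share of 5.71% that is near the 5.75% called over all genes. Irf7 read at most 36.7 in the 6 libraries, overlaps Phrf1 on the opposite strand, and lost its call in edgeR (adjusted p 0.0142) and in 5 of the 6 fits that left out a library of the comparison.

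**Figure D3:**
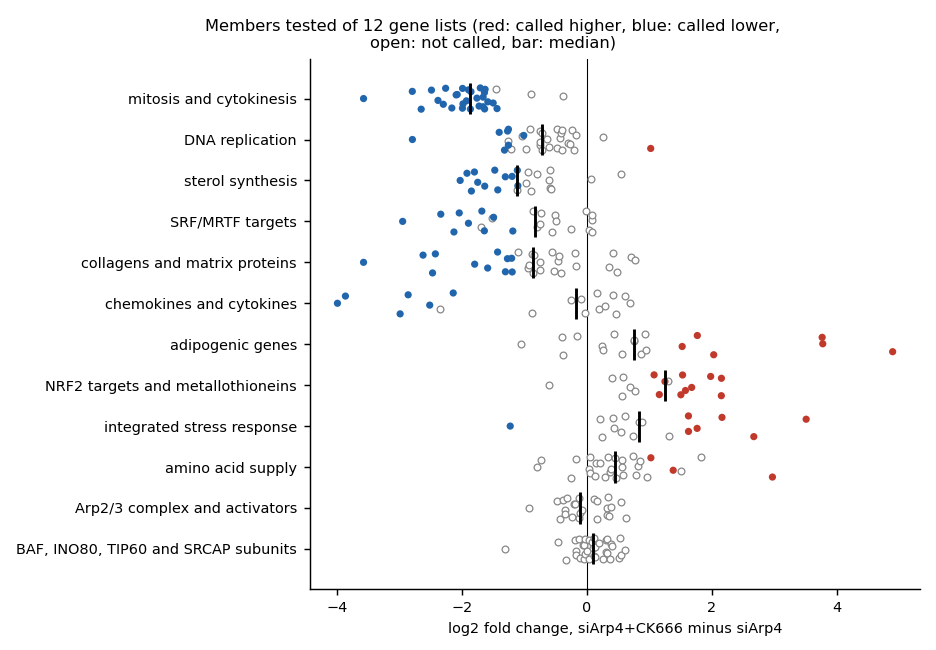
Log2 fold changes in siArp4+CK666 against siArp4 of the members tested in 12 gene lists; red and blue points were called higher and lower, open points were not called, and the bar is the median of the list. The mitotic genes lie left of 0 throughout (median -1.86), and the NRF2 list has its median at 1.25.

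Stress-responsive genes rose in several lists. The integrated stress response slows translation while raising the factor ATF4, which turns on genes of amino acid supply and, through CHOP (Ddit3), of cell death. Of 17 genes of that response tested, 6 were called higher and 1 lower, with a median of 0.83. Atf3, given above, rose most. Trib3 read 179, 185 and 129 in siArp4, against 839.6, 1063 and 1229.8 in siArp4+CK666, a change of 2.67 (SE 0.32, adjusted p 1.75e-14). Atf5 read 1087, 1229 and 1006 without CK666 and 4296, 4898 and 5652 with it, and Chac1, which degrades glutathione, read 109, 79.9 and 74.1 in siArp4, against 241, 258 and 314 in siArp4+CK666, a change of 1.62 (SE 0.27, adjusted p 4.59e-08). Nupr1, a stress-induced nuclear protein, was the member that fell, from 5401, 5559 and 4844 to 1895, 2330.3 and 2527, a change of -1.23 (SE 0.22, adjusted p 5.91e-07). Its siControl libraries read 1385, 2072 and 2136, which overlap those of siArp4+CK666. Atf4 itself, chosen after its values were seen, changed by 0.61 (adjusted p 0.069). The CARE element of ATF4 and its partners (TGATGNAA, on either strand) was found in the promoters of 4 of the 7 called genes of the list, against 2.69% of all tested genes with a promoter. The promoters of Atf3 (chr1:191183284-191183583, minus strand) and Trib3 (chr2:152344011-152344310, minus strand, GRCm38.p6), the 2 such members with the smallest adjusted p, are printed with the element in capitals.
Atf3: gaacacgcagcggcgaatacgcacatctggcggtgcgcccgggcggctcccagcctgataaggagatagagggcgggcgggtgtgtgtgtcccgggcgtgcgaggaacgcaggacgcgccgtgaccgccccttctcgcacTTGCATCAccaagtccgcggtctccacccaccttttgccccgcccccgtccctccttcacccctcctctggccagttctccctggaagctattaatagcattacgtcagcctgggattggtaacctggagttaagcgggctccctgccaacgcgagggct
Trib3: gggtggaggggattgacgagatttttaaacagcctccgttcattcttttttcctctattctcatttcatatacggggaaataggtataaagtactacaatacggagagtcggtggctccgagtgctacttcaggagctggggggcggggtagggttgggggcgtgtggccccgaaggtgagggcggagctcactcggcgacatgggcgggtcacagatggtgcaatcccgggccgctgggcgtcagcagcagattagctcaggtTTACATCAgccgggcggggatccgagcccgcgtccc

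Of 29 genes of amino acid supply tested, 3 were called higher (10.34%, against 1.63% of all genes) and 0 lower, with a median of 0.45. Slc7a11 read 35.4, 27.0 and 43.1 without CK666 and 303, 305 and 217 with it, a change of 2.97 (SE 0.32, adjusted p 7.74e-18). Its partner subunit Slc3a2 changed by 1.38 (SE 0.28, adjusted p 1.97e-05) and Mthfd2, a mitochondrial folate enzyme, by 1.02 (SE 0.25, adjusted p 6.45e-04), and neither was called by edgeR (adjusted p 0.0109 and 0.0204). Mthfd2 also lost its call without siArp4 replicate 1 or 2 or siArp4+CK666 replicate 3. Of 25 ER chaperones and degradation genes 1 was called (4.0%, near the 5.75% of all genes). It was Atf6, which rose by 1.03 and lost the call in 4 of the 6 fits that left out a library of the comparison. The chaperone Hspa5, chosen after its values were seen, read 12144, 12239 and 13249 in siArp4, against 10662, 10913 and 10245 in siArp4+CK666 (-0.24, adjusted p 0.101). The median of that list was -0.05, near the 0.02 of all genes.

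Antioxidant genes had the largest share of rises among the 30 pathway lists. NRF2 is the factor that turns on glutathione and thioredoxin enzymes under oxidative stress, and metallothioneins bind metals. Of 17 genes tested 10 were called higher and 0 lower, with a median of 1.25. Gclm, the modifier subunit of the enzyme that starts glutathione synthesis, read 900.3, 984 and 954 without CK666 and 3912, 4309.5 and 4367 with it, a change of 2.15 (SE 0.16, adjusted p 2.14e-36). Gm17494, which overlaps Gclm on the opposite strand, had a mean count of 85.3. Srxn1, sulfiredoxin, changed by 1.58 (SE 0.11, adjusted p 1.32e-40), Gsr, glutathione reductase, by 1.16 (SE 0.13, adjusted p 1.39e-16) and the transferase Gsta4 by 1.68 (SE 0.24, adjusted p 8.43e-11). Mt2 read 1323, 1330.4 and 1116 in siArp4, against 4454, 5214 and 7072 in siArp4+CK666, with siArp4+CK666 replicate 3 the highest. Nqo1, a quinone reductase often used as a reporter of NRF2 and chosen here after its values were seen, went the other way and read 3631, 3529 and 3661 without CK666 and 2343, 2379.9 and 2368 with it (-0.61 (SE 0.11, adjusted p 3.08e-06)), below the fold minimum. The core of the antioxidant response element (TGACNNNGC), a motif added after the data were seen, was found in 4 of the 6 called members with a promoter, against 17.0% of all tested genes with one.

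A part of the adipogenic genes rose. Of 19 adipogenic genes tested 6 were called higher and 0 lower, with a median of 0.76. Lpl, the lipoprotein lipase of adipocytes, read 13131, 14367 and 14607 in siArp4, against 56310.0, 58925 and 56406 in siArp4+CK666, a change of 2.03 (SE 0.13, adjusted p 4.23e-49), and its siControl libraries read 62076, 75281 and 62143. Fabp4, a fatty acid carrier, read 1301, 1293 and 1152 without CK666 and 3339, 3397 and 4032 with it, a change of 1.52 (SE 0.18, adjusted p 9.27e-15). The siArp4 libraries were thus the lowest of the 3 groups for Lpl and for Fabp4. Adipoq, which encodes adiponectin, read 16, 4.32 and 9.02 in siArp4, against 165, 109 and 135 in siArp4+CK666, and Cd36, a fatty acid receptor, 2.53, 2.16 and 7.01 without CK666 and 146, 107 and 91.7 with it, so both were low without CK666. Their changes were 3.76 (SE 0.45, adjusted p 4.06e-15) and 4.89 (SE 0.58, adjusted p 3.77e-15). Pparg and Cebpa, the regulators of adipocyte identity, were chosen after their values were seen and changed by 0.76 (SE 0.16, adjusted p 8.58e-05) and 0.76 (SE 0.26, adjusted p 0.0318), below the fold minimum. Of the adipocyte markers Lep was at 0 throughout and Retn and Cidec read at most 6.32, and the summed level of the 6 markers was 1162 to 1323 in siArp4 and 3529 to 4196 in siArp4+CK666, most of it Fabp4. All 3 of these markers that were tested, Adipoq, Plin1 and Fabp4, were called higher. Of 8 osteogenic genes tested 1 was called (12.5%, against 5.75% of all genes), Col1a1, which was lower.

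Smaller groups of secreted signals moved in both directions. In the TGF-beta and BMP list, 2 of 20 were called higher and 3 lower. Inhbb, an activin subunit, read 1190.0, 1245 and 1199 in siArp4, against 3871, 4101 and 3847 in siArp4+CK666, a change of 1.70 (SE 0.10, adjusted p 2.98e-56), while the other activin subunit, Inhba, read 2117, 2302 and 3240.2 without CK666 and 575, 444 and 365 with it, a change of -2.47 (SE 0.35, adjusted p 8.87e-11). Id2, an inhibitor of differentiation factors, rose by 1.19 (SE 0.20, adjusted p 2.00e-07). Fstl3, which binds activins, fell by 1.56 on the log2 scale, and Bmp4 read 33.7, 23.8 and 73.1 in siArp4, against 11.6, 8.58 and 10.5 in siArp4+CK666, with siArp4 replicate 3 far above the other libraries, and lost its call without that library and without siArp4+CK666 replicate 2 or 3. In the Wnt list 2 of 25 were called higher and 5 lower. Sfrp4, a secreted Wnt antagonist, changed by -2.15 (SE 0.27, adjusted p 3.16e-13), Lgr6, a receptor of R-spondins, by -2.41 (SE 0.33, adjusted p 4.39e-11) and Fzd2, a Wnt receptor, by -1.17 (SE 0.20, adjusted p 1.45e-07). The antagonist Dkk3 (-1.08) lost its call without siArp4+CK666 replicate 3. Nkd2 (1.26) was not called by edgeR (adjusted p 0.0108), and Apcdd1 (1.59) lost its call without any single library of the comparison except siArp4+CK666 replicate 3. Irs2, the adaptor of insulin and IGF receptors, rose by 1.59 (SE 0.32, adjusted p 1.23e-05), and the IGF-binding protein protease Pappa (-1.97) was not called by edgeR (adjusted p 0.0451), nor without any single library of the comparison except siArp4+CK666 replicate 1.

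Among immediate early and feedback genes 1 of 25 was called higher and 3 lower, against 1.63% higher and 4.12% lower over all genes. Dusp4, a phosphatase of MAP kinases, read 237, 233 and 283 without CK666 and 1299.5, 1045 and 750.3 with it, a change of 2.04 (SE 0.37, adjusted p 8.93e-07). Klf2 fell from 2703, 2881 and 2083 to 357, 543 and 769 (-2.20) but was not called by edgeR (adjusted p 0.0253). In the test against a 2-fold change the count of calls in this list was 0, and without siArp4+CK666 replicate 1 it was 2. Jun (-1.02) and Dusp1 (-1.04; it overlaps Ergic1 on the opposite strand) lay at the fold minimum and lost their calls without that library, and Jun also without siArp4+CK666 replicate 3. Of 13 heat shock genes 3 were lower (23.08%, against 4.12% lower over all genes). They were Hspa1a (-1.32) and Hspa1b (-1.35), near-identical copies whose reads may be split between them, and Hspb1 (-1.88), which edgeR did not call (adjusted p 0.0657) and which lost its call without any single library of the comparison. Of 23 lysosomal genes 2 were higher (8.7%, against 1.63% higher over all genes). They were the galactosidase Gla (1.06 (SE 0.18, adjusted p 2.44e-07)) and the proton pump subunit Atp6v0d2 (1.5), the latter not called by edgeR (adjusted p 0.024) nor without siArp4 replicate 1 or siArp4+CK666 replicate 2. Of 24 integrin and focal adhesion genes 1 was called (4.17%, near the 5.75% of all genes). It was the integrin subunit Itgb3, which rose by 1.42 (SE 0.23, adjusted p 3.83e-08). Other lists with a single call were 16 clock genes (6.25%), 18 p53 targets (5.56%) and 23 glycolysis and hypoxia genes (4.35%), near the 5.75% of all genes. Complement had 1 of 9 (11.11%). The called members were the clock gene Nr1d2 (1.33), the p53 target Zmat3 (1.03), the hypoxia gene Ndrg1 (-1.61) and the complement regulator Cd59a (-1.12), and edgeR called none of these 4. Each lost its call without at least 2 of the single libraries of the comparison.

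Few genes of the machinery that CK666 and the siRNA act on passed the test. Of 24 genes of the Arp2/3 complex and its activators 0 were called, with log2 fold changes between -0.93 and 0.63, 0 called higher and 1 lower with no fold minimum. Of 35 subunits of the BAF, INO80, TIP60 and SRCAP complexes 0 were called, and Actl6a, at -1.31, had the lowest value of these. Of 13 formins and other nucleators 1 was called lower (7.69% called, against 5.75% of all genes). It was Diaph3, which read 455, 369 and 391 in siArp4, against 115, 82.0 and 54.8 in siArp4+CK666 (-2.27) and was not called by edgeR (adjusted p 0.0188). Of 20 ribosome biogenesis genes 0 were called, with a median of 0.09 and a range of -0.30 to 0.59. At an unadjusted p below 0.05, 4 Arp2/3 genes were higher and 4 lower, 3 and 2 of the chromatin subunits, and 3 and 0 of the ribosome biogenesis genes, and edgeR called 0 in each of these lists. A count of 0 does not show that the genes were unchanged.

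**Figure D4:**
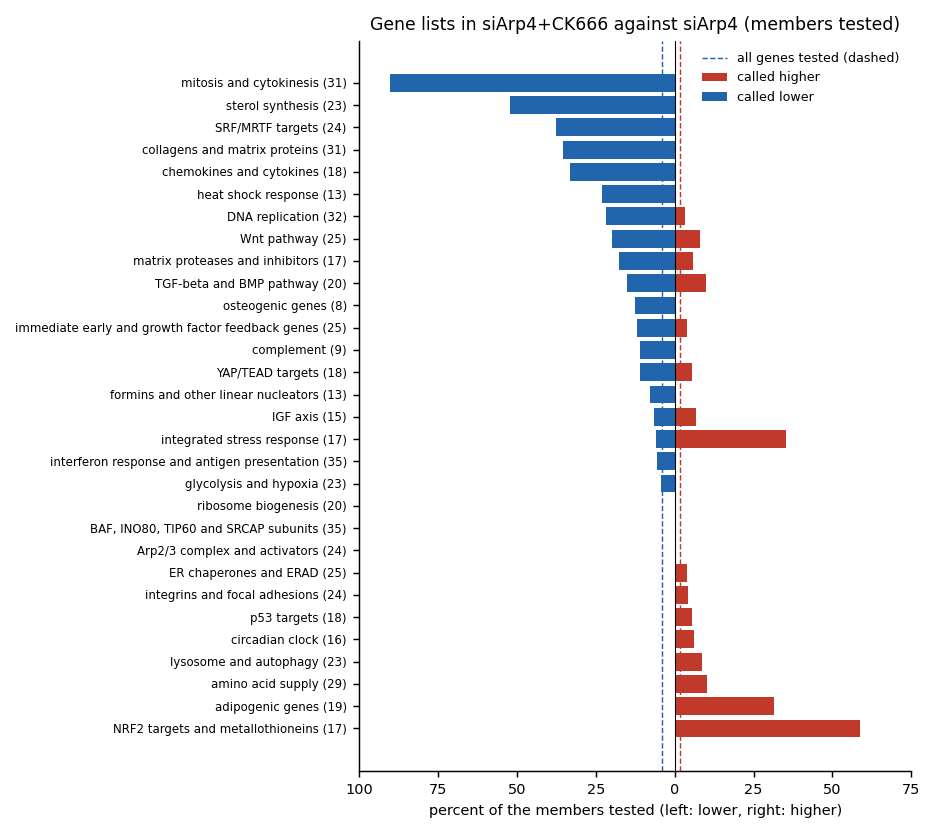
Share of the members tested that were called higher (red, right) or lower (blue, left) in 30 gene lists, with the number tested in parentheses and dashed lines for all genes tested (1.63% higher, 4.12% lower). Mitosis and cytokinesis has 28 of 31 lower, and the NRF2 list 10 of 17 higher.

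Promoter elements were counted over all called genes as well. The CHR was found in 25.3% of called-lower genes with a promoter in the table and in 15.4% of called-higher genes, against 14.4% of all genes tested. AP-1 sites (TGANTCA) were found in 12.9% and 11.7%, against 6.33%, and CARE elements in 4.96% and 4.32%, against 2.69%. TEAD sites (CATTCC) were found in 16.4% and 8.64%, against 14.3%, the CArG box in 2.73% and 1.85%, against 1.63%, the interferon element (GAAANNGAA) in 10.2% and 8.02%, against 8.48%, and the sterol element in 1.24% and 0.62%, against 1.32%. CCAAT boxes were found in 49.1% and 46.3%, against 43.3%, and the antioxidant core in 16.9% and 19.1%, against 17.0%. Both strands were searched, and matches of different motifs may overlap. Promoters were given for 403 of the 581 lower, 162 of the 230 higher and 10233 of 14084 tested symbols, and these shares are descriptions without a test. The shares given above within single lists cover called members only. Those lists gather genes known for such elements, so the shares cannot show which members respond to CK666.

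CK666 also acted on cells that had not been transfected, and those libraries share none with the comparison above. There 1599 genes were called (11%), 714 higher (4.89%) and 885 lower (6.06%). Of the 811 genes called in knockdown cells, 90 were called higher and 291 lower in both settings, which is 46.98% of the 811 and 23.83% of the 1599, and 8 were called in opposite directions. Because a call in one setting and not in the other does not show a difference, the change with CK666 in knockdown cells minus that in untransfected cells was tested over all 18 libraries. This interaction was called for 597 genes (4.42%), 257 positive (1.9%) and 340 negative (2.52%), and for 162 of the 811 genes.

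Of the mitotic list 7 of 31 genes were called with a negative interaction and 0 with a positive one, against 2.52% negative over all genes. Ccna2 changed by -2.65 in knockdown cells and by -1.48 in untransfected cells, an interaction of -1.18 (SE 0.15, adjusted p 2.67e-13). Nuf2 had an interaction of -1.25 (SE 0.19, adjusted p 7.77e-09) and Nusap1 of -1.84 (SE 0.21, adjusted p 1.70e-16). In the DNA replication list 2 of 32 were called positive and 0 negative. Of 24 contractile genes 4 were negative, among them Actg2, with -1.17 (SE 0.24, adjusted p 5.03e-05).

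Of the integrated stress response 7 of 17 genes were called negative and 1 positive, and of amino acid supply 6 of 29 negative and 0 positive, against 2.52% negative and 1.9% positive over all genes. The NRF2 list gave 3 negative and 1 positive of 17, ER chaperones 1 negative of 25 and heat shock genes 0 of 13. Most members of these lists were not called. Trib3 read 267, 304 and 314 in control and 8849, 6367 and 7086 with CK666 alone, a change of 4.66 (SE 0.17, adjusted p 2.35e-169), and its interaction was -1.99 (SE 0.37, adjusted p 2.93e-06). Chac1 had an interaction of -1.39 (SE 0.28, adjusted p 1.95e-05). Atf5 was the positive member, with 1.22 (SE 0.24, adjusted p 1.59e-05). Nupr1 went in opposite directions, reading 497, 545 and 510.2 in control and 2726, 1494 and 1762 with CK666 alone, a rise of 1.95 (SE 0.20, adjusted p 1.22e-20). Its interaction was -3.17 (SE 0.30, adjusted p 8.69e-23).

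The positive interactions named here were of genes called higher in knockdown cells, which rose more there or fell in untransfected cells. Of all 257 positive interactions, 45 were of genes called higher in knockdown cells. Tmem182 changed by 0.87 in untransfected cells (interaction 3.42 (SE 0.26, adjusted p 7.02e-37)), Gpr176 by -0.13 (2.84 (SE 0.19, adjusted p 1.51e-46)) and Lpl by 0.85 (1.17 (SE 0.13, adjusted p 4.98e-18)). Htr7, a serotonin receptor, read 111, 133 and 152 without CK666 and 309, 280.4 and 244 with it, and 36.8, 39.0 and 40.4 in control and 10.8, 9.17 and 13.9 with CK666 alone, an interaction of 2.84 (SE 0.40, adjusted p 2.40e-10). Dact1, a regulator of Wnt signals, had an interaction of 2.91 (SE 0.51, adjusted p 8.30e-07). The rises of Htr7 and Dact1 in knockdown cells were not called by edgeR (adjusted p 0.0356 and 0.0127), nor without siArp4 replicate 1. Irs2 rose in knockdown cells and changed by -0.90 in untransfected cells, an interaction of 2.48 (SE 0.35, adjusted p 2.42e-10). On the negative side were Ly6a, with -3.05 (SE 0.27, adjusted p 5.65e-26), and Dcn, with -4.32 (SE 0.70, adjusted p 4.31e-08), which read 0.967, 4.87 and 1.03 in control and 9.82, 7.14 and 5.58 with CK666 alone, near 0 in both. Trdc, a T cell receptor segment, read 168, 159.8 and 134 in siArp4, against 41.2, 45.8 and 53.7 in siArp4+CK666 and at most 6.88 in untransfected cells, so its interaction of -3.40 (SE 0.97, adjusted p 0.00677) rests on few counts and was lost in edgeR (adjusted p 0.104). Levels are compared within an experiment, since each experiment was scaled by itself.

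**Figure D5:**
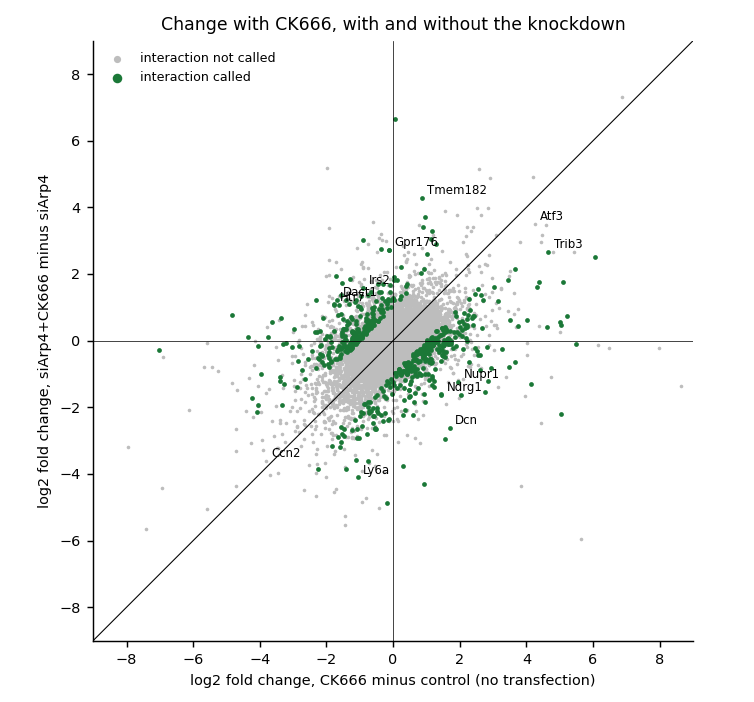
Log2 fold change with CK666 in untransfected cells (horizontal) and in Arp4 knockdown cells (vertical) for 13241 genes tested in both and in the interaction; green points have a called interaction and the diagonal marks equal change. Tmem182 and Gpr176 lie above the diagonal, and Ly6a, Nupr1 and Dcn below it.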

How the data were processed

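RNA-seq libraries of mouse marrow MSC (18, unstranded) were analysed. The authors quantified reads with Salmon 1.2.1 on GENCODE transcripts (GRCm38, mm10) and deposited expected counts per gene for 54347 genes; how transcripts were summed to genes is not given in the sources used here. Rounding to whole numbers shifted no library total by more than 277 counts. Symbols and coordinates came from an annotation that matched 54094 identifiers and not 253. DESeq2 1.42.0 (R 4.3.3, Wald test, group as the only term) was fitted to siControl, siArp4 and siArp4+CK666, and for the interaction to all 18 libraries, with Benjamini-Hochberg adjustment. A call needed an adjusted p below 0.01 and an absolute log2 fold change over 1. edgeR 4.0.16 (quasi-likelihood), other size factors, filters, a replicate block and leaving out each library were alternatives. The tests were tested on simulated data. Named genes were Actl6a, the 12 largest called changes each way with a mean count of at least 100, up to 4 called members per list and direction with the smallest adjusted p, and the 4 largest interactions each way; 4 unnamed or clone-named genes were passed over. The members and lists were chosen with earlier results of these data known. Promoters came from RefSeq. Results for some genes are not reported here.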

Additional observations from a re-analysis of the deposited data

Results flagged for a closer look

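The response to CK666 differed between Arp4 knockdown cells and untransfected cells in 597 genes by the interaction test (DESeq2, adjusted p below 0.01 and an absolute value over 1), among them 39 of the named genes. Every value here is the log2 fold change with CK666 in knockdown cells minus that in untransfected cells, so transfection, knockdown and experiment cannot be told apart.

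Positive values among the genes that rose most in knockdown cells were 3.42 for Tmem182, 2.84 for Gpr176, 2.13 for Trem2, 1.6 for Mamdc2 and 1.22 for Atf5. The interaction of Trem2 was not called by edgeR (adjusted p 0.0113), and the macrophage markers of siArp4+CK666 replicate 3 are given beside its levels above. Signalling genes gave 2.91 for Dact1, 2.84 for Htr7, 2.48 for Irs2, 1.35 for Id2, 1.27 for Inhbb and 1.27 for Nkd2. Lpl gave 1.17 and F3 1.05.

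Negative values of surface and secreted proteins were -3.05 for Ly6a, -2.46 for Ccl9, -1.6 for Cd248, -1.59 for Plau, -1.33 for Gprc5a and -1.89 for Inhba. Matrix genes and matrix enzymes gave -4.32 for Dcn, -2.44 for Timp3, -1.96 for Adamts1, -1.64 for Mmp11 and -1.89 for Glt8d2. Mmp11 rose in both settings, by 1.81 in knockdown cells and 3.44 in untransfected cells. The mitotic genes gave -2.45 for Cenpf, -1.84 for Nusap1, -1.25 for Nuf2 and -1.18 for Ccna2. Contractile genes gave -1.17 for Actg2, -1.14 for Tgfb1i1 and -1.01 for Acta2.

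Stress genes gave -3.17 for Nupr1, -1.99 for Trib3, -1.51 for Mt2, -1.39 for Chac1 and -1.27 for Slc3a2. Nupr1 and Ndrg1, at -3.06, fell in knockdown cells and rose in untransfected cells, where Ndrg1 changed by 1.44 (SE 0.24, adjusted p 2.16e-08). Lgr6 gave -2.12 and Trdc -3.40. The interaction of Mt2 lost its call in edgeR and on leaving out any 1 of 9 single libraries, that of Cenpf in edgeR and on leaving out any 1 of 4, and that of Slc3a2 in edgeR and on leaving out any 1 of 5. That of Trdc was lost in edgeR, with the replicate block and on leaving out any 1 of 9 single libraries. That of Acta2 was lost on leaving out any 1 of 5 and that of F3 on leaving out any 1 of 3, and 32 of the 39 kept the call in every setting run.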

How the results depend on the processing

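None of the genes named by the rule turned its direction under any setting run; genes chosen after their values were seen were not run under the alternatives. The median log2 fold change over all genes tested, 0.016, turned negative with upper quartile size factors, with the replicate block and without siArp4+CK666 replicate 3, each time by less than 0.02. The 811 calls became 466 with edgeR, 1395 with no fold minimum and 145 when the test itself was against a 2-fold change, and the 597 interaction calls became 384 with edgeR and 1056 with no fold minimum. edgeR on the 6 libraries alone, chosen after seeing the data, gave 731, of which 680 were shared with the 811. Leaving out 1 library gave 575 to 926 calls (lowest without siArp4 replicate 1) and 469 to 651 interaction calls. The ratio of distances between to within groups was 2.188 over the 1000 most variable genes and 1.716 over all genes with counts. The cause of these differences was not tested. Other size factors, filters and sets of libraries gave 737 to 944. The deviations of same-numbered siArp4 and siArp4+CK666 libraries correlated at -0.36, -0.0434 and -0.597, and not every library correlated best with its own number. With 3 libraries a group, these correlations cannot show whether the replicate numbers paired the samples. With the replicate number as a block there were 769 calls and 584 interaction calls. Of the named genes called, 47 kept the call in all 21 alternatives, 28 lost it only in the test against a 2-fold change, and 79 were called by edgeR. With 3 libraries a group, changes near the fold minimum and genes of few counts are the least certain.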
